A study of Mus musculus with 6 samples.

Results

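The genes of the T cell receptor complex and of its first signalling steps were followed across 6 RNA-seq libraries made from CD4+ T cells of mice, the lymphocytes that help other immune cells. The 9 genes were chosen by symbol for their role, namely Cd3d, Cd3e, Cd3g, Cd247, Lck, Zap70, Lat, Cd5 and Cd6, and each matched 1 of the 13177 rows of the deposited count table. The 3 libraries labelled 8 h came from cells collected 8 h after transfer of a synthetic miR-155 oligonucleotide, and the 3 control libraries carry the label of 0 h. The treatment label of the controls names the same oligonucleotide, and no library was made at 8 h without it, so time and exposure cannot be told apart. Cells were purified by magnetic beads with a CD4+ isolation kit, per the series' design text. The labels name no strain, age or sex and do not say whether replicates came from separate animals or cultures. The p-values therefore set the group difference only against the spread between these libraries, which may be technical.

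The T cell receptor has no signalling domain of its own and relies on the CD3 chains with which it is assembled. Cd3d, Cd3e and Cd3g encode the delta, epsilon and gamma chains, and Cd247 encodes the zeta chain, whose tails are phosphorylated by the kinase Lck. The kinase Zap70 docks on the phosphorylated tails and in turn phosphorylates the adaptor Lat, on which the downstream signalling proteins gather. Cd5 and Cd6 are related scavenger receptor proteins at the T cell surface that tune this signal, and Cd5 is also found on some B cells.

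The mature sequence of mouse miR-155-5p is shown because its seed defines the sites a miR-155 oligonucleotide would pair with. It lies on chromosome 16 (84714143 to 84714165, plus strand, GRCm38.p6, RefSeq), and capitals mark the seed, bases 2 to 8. The labels do not spell out the sequence of the oligonucleotide itself.
mmu-miR-155-5p: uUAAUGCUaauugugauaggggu
The letters complementary to this seed, AGCATTA, were searched in the annotated 3' UTR of 1 transcript per gene (GENCODE M21), between 222 bases in Lat and 997 bases in Cd247. They were found 0 times in each of the 9 genes, which says only that these letters are not in those stretches.

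Cd3g and Cd3d are neighbours on chromosome 9, transcribed away from each other, with the starts of their gene records in RefSeq 1338 bases apart. Cd3e lies 11682 bases beyond the end of Cd3d, on the opposite strand. The promoter windows of Cd3g and Cd3d (RefSeq, GRCm38.p6), 250 bases before to 50 after the start, are shown because the ratio of the counts of these neighbours did not overlap between the groups, as described below. Ratios without overlap were no more common among the chosen genes (9.52%) than over all pairs of tested genes (10.6%). The window of Cd3g is chr9:44980382-44980681 on the minus strand and that of Cd3d is chr9:44981536-44981835 on the plus strand. The Cd3d window is placed on a start 17 bases inside its gene record, so the starts used for the windows lie 1355 bases apart. Both strands were searched for the RUNX letters TGTGGT, the E-box letters CAGCTG, the ETS letters CAGGAAG and the TATA box letters TATAAA. Only these exact letters were searched, not other forms of the motifs, and capitals mark a match.
Cd3g promoter: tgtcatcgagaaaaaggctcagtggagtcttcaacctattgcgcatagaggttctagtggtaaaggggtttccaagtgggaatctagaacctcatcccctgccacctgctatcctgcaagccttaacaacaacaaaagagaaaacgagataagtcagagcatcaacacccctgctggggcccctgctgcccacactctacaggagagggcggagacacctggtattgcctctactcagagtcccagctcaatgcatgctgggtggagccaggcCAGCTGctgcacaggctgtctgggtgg
Cd3d promoter: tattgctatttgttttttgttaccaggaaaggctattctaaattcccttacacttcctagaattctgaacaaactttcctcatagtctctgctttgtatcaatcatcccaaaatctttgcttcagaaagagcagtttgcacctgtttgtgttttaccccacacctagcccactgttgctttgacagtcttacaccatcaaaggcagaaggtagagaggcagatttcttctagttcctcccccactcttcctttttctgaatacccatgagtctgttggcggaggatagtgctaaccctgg
The Cd3g window held CAGCTG 1 time, overlapping no other match, and the Cd3d window held none of the 4 exact strings. As other forms were not searched, this does not show that the windows differ in their motifs. Of 32851 promoter windows of this length, 16.3% held CAGCTG, 16.8% TGTGGT, 13.3% CAGGAAG and 13.6% TATAAA. No binding was measured here.

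Depth ran from 6243803 to 13675127 counts in the 8 h libraries and from 4564010 to 12303358 counts in the controls. Values below are counts, or CPM, which is each count scaled to the total of its library. Beyond the members, the table showed an unusual profile, with at most 5 counts of Actb and at most 11 of Gapdh in a library, genes that T cells normally express strongly. What a row counts is therefore uncertain, and every value below carries that limit. Cd4, the marker for which the isolation kit is named, had 5 to 9 counts in the 8 h libraries and 6 to 10 counts in the controls. In bulk RNA, fewer cells of a type and less RNA per cell cannot be told apart.

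Of the 9 members, 7 were abundant in at least some libraries, whereas Cd247 and Zap70 lay below the median row in all 6. Cd3d, Cd3e, Cd3g, Lck, Lat, Cd5 and Cd6 lay between percentiles 68.5 and 99.96 of rows in each library. Cd247 lay between percentiles 16.6 and 39.0 and Zap70 between percentiles 23.1 and 43.8. The leading member differed between libraries: of the summed counts of the 9 genes, Lck took 42.8% in 8 h replicate 1 and 46.6% in 8 h replicate 2, and Cd3g took 62.7% in 8 h replicate 3. In the controls, Cd5 took 77.4% in replicate 1, Cd3d 86.5% in replicate 2 and Lck 75.8% in replicate 3. Together the 9 genes made up 0.395%, 0.470% and 1.38% of counts in 8 h replicates 1 to 3, against 0.298%, 1.87% and 1.74% in control replicates 1 to 3, and the groups overlapped.

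**Figure D1:**
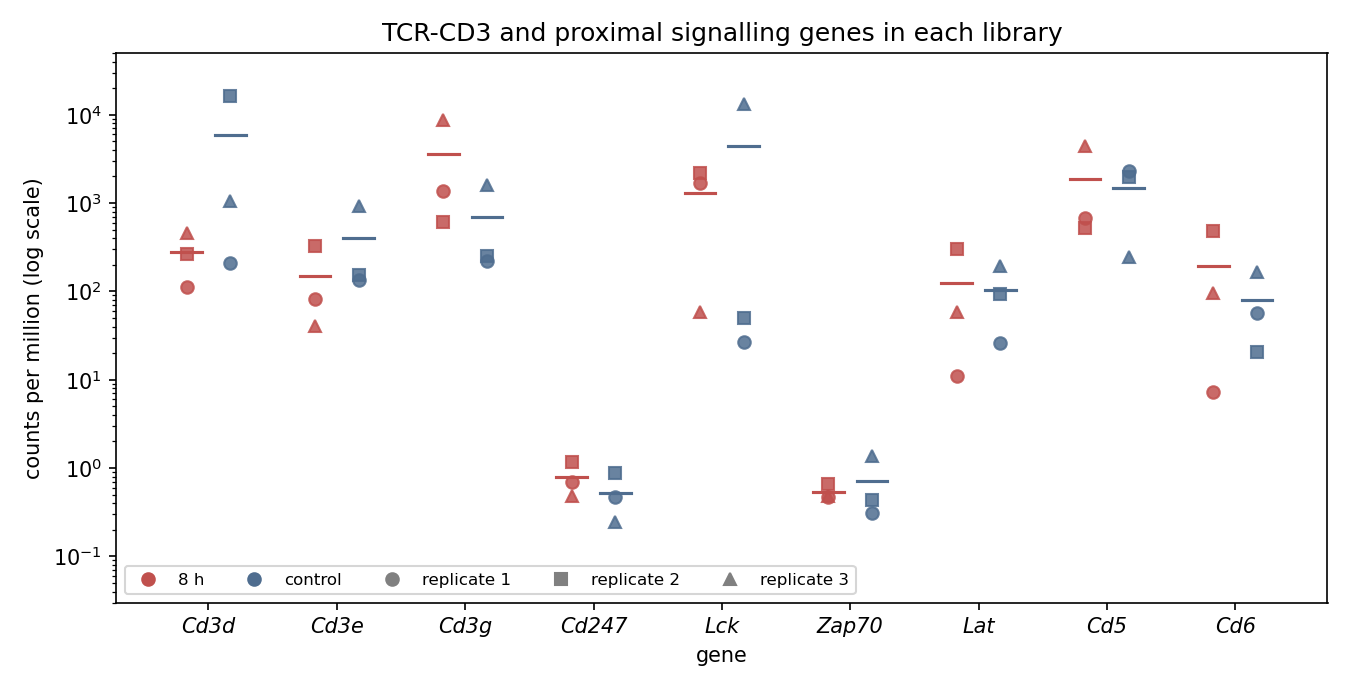
CPM (log axis) of the 9 genes in each library, 8 h to the left of control for each gene. Symbols mark replicates and bars mark group means (n = 3). The groups overlap for every gene, and Cd247 and Zap70 reach at most 1.38 CPM.

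Among the CD3 chains, Cd3d spanned a narrower range in the 8 h libraries than in the controls. It stood at 112, 262 and 464 CPM in 8 h replicates 1 to 3, against 207, 16200.0 and 1061 CPM in control replicates 1 to 3. Control replicate 2, where Cd3d was the 6th most abundant row, stood far above the rest, and the other controls overlapped the 8 h libraries. The means were 279 ± 177 CPM at 8 h and 5823 ± 8997 CPM in controls (SD, n = 3 each).

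Cd3g leaned the other way. It stood at 1380.4, 616 and 8646 CPM in 8 h replicates 1 to 3, against 220.1, 252 and 1596 CPM in control replicates 1 to 3. In 8 h replicate 3 it was the 17th most abundant row, and control replicate 3 lay above both other 8 h libraries, so the groups overlapped. The means were 3548 ± 4432 CPM at 8 h and 689.5 ± 785 CPM in controls (SD, n = 3 each).

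Cd3e, the chain that pairs with both of the others, stood at 82.8, 324 and 41.0 CPM in 8 h replicates 1 to 3, against 136, 154 and 933 CPM in control replicates 1 to 3. The highest value was in control replicate 3 and the lowest in 8 h replicate 3, with the 8 h replicate 2 value above both other controls. Cd247, the zeta chain, had 6, 16 and 3 counts in 8 h replicates 1 to 3, against 3, 4 and 3 counts in control replicates 1 to 3. These counts are too low to be tested, and the row carries 1 of 4 RefSeq mRNA accessions of the gene, so whether reads of the other isoforms were counted in it is not known.

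Because the 3 genes encode partner chains, their counts were also compared within each library, where scaling between libraries plays no part. The ratio of Cd3g to Cd3e counts was 16.7, 1.90 and 211 in 8 h replicates 1 to 3, against 1.62, 1.64 and 1.71 in control replicates 1 to 3. In the controls this ratio lay within a narrow range although both genes varied several-fold between them. Every 8 h library lay above that range, replicate 2 only slightly. How often 3 libraries give so narrow a range for a ratio of 2 genes was not computed. The ratio of Cd3d to Cd3g counts was 0.0809, 0.425 and 0.0536 at 8 h, against 0.942, 64.2 and 0.665 in controls, every 8 h library lying lower. The ratio of Cd3d to Cd3e counts overlapped between the groups, at 0.809 to 11.3 at 8 h and 1.14 to 105 in controls.

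Put as a share of the summed counts of the 4 chains, Cd3g made up 87.6% (95% Wilson interval 87.0 to 88.2), 51.2% (50.5 to 52.0) and 94.5% (94.3 to 94.7) in 8 h replicates 1 to 3. In control replicates 1 to 3 it made up 39.0% (37.5 to 40.6), 1.52% (1.44 to 1.61) and 44.5% (44.0 to 44.9). These intervals treat every read as an independent draw and leave out the spread between libraries. Whether copies of the same molecule were counted separately is not known, and if they were, the intervals may be too narrow. The mean share was 77.8 ± 23.2% at 8 h and 28.3 ± 23.4% in controls (SD, n = 3 each), with no overlap. A two-sided exact permutation test gave p = 0.1, the smallest p that 3 against 3 libraries allow, so the design could not reach 0.05. With counts divided by transcript length the share was 83.0 ± 19.1% at 8 h and 35.4 ± 28.8% in controls (SD, n = 3 each). The share was chosen after the values were seen. Groups of 3 that do not overlap always give this smallest p, so the permutation test adds no support. Of the 21 ratios between 2 of the 7 more abundant members, 2 (9.52%) did not overlap between groups, both involving Cd3g. Over all pairs of tested genes this held for 10.6%, so the number of such ratios among the members was near the background.

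**Figure D2:**
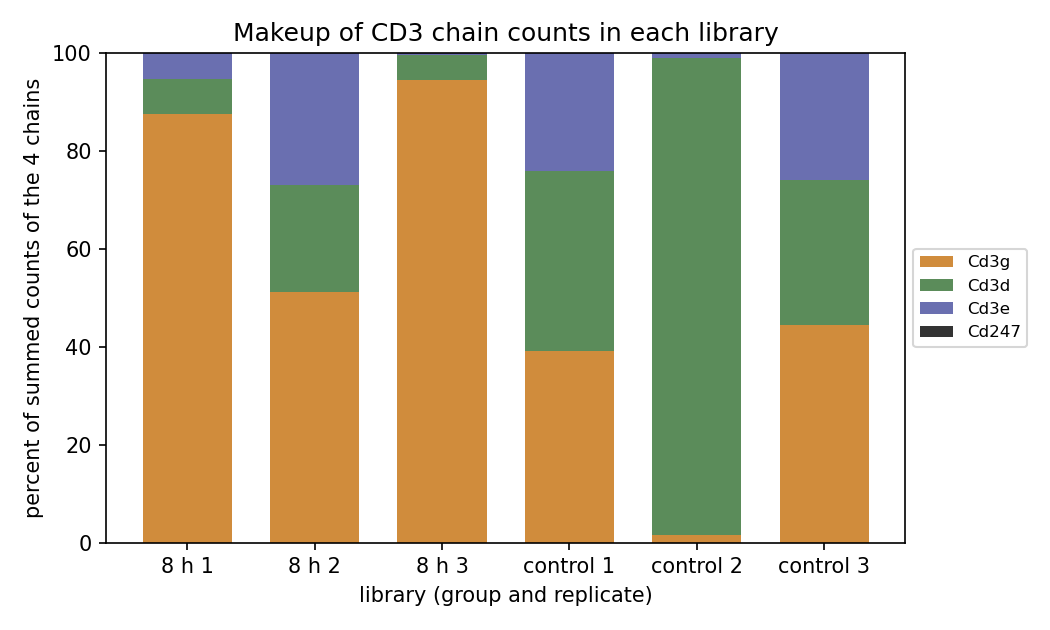
Percent of the summed counts of the 4 CD3 chain genes taken by each gene, in 1 bar per library. Cd3g takes 51.2% to 94.5% in the 8 h libraries and 1.52% to 44.5% in the controls, while Cd247 is too rare to be visible.

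Lck, the kinase that starts the cascade, had the widest spread of the members. It stood at 1691, 2190.0 and 58.8 CPM in 8 h replicates 1 to 3, against 26.5, 49.5 and 13174 CPM in control replicates 1 to 3. High and low libraries occurred in both groups, and the control values spanned 497-fold. Of 1206 rows with a mean of at least 100 CPM and no count of 0, 97.5% spanned less in the controls, where the median row spanned 26.0-fold. Zap70, the kinase that acts after Lck, had 4, 9 and 3 counts in 8 h replicates 1 to 3, against 2, 2 and 17 counts in control replicates 1 to 3. Like Cd247, it had too few counts for a test, and its row carries 1 of 4 RefSeq mRNA accessions. The Lck row likewise carries 1 of 3 such accessions and the Cd6 row 1 of 2.

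Lat, the adaptor, stood at 11.1, 301 and 58.9 CPM in 8 h replicates 1 to 3, against 25.9, 93.3 and 194 CPM in control replicates 1 to 3. The 8 h libraries held both the lowest and the highest value. Lck and Lat, which act in the same cascade, did not keep a fixed proportion. The ratio of their counts ran from 0.997 to 152 at 8 h and from 0.531 to 67.7 in controls.

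Cd5 bears on the labels, since the description of the 8 h samples names CD5+ cells and their source label CD4+ cells. It stood at 669.6, 527 and 4429 CPM in 8 h replicates 1 to 3, against 2305, 1952 and 245 CPM in control replicates 1 to 3. The highest value was in 8 h replicate 3 and the lowest in control replicate 3, and the groups overlapped, with means of 1875 ± 2213 CPM at 8 h and 1501 ± 1101 CPM in controls (SD, n = 3 each). Cd6, which lies 50312 bases from Cd5 on chromosome 19 on the same strand, stood at 7.26, 479.7 and 97.1 CPM in 8 h replicates 1 to 3, against 56.7, 20.6 and 164 CPM in control replicates 1 to 3. As for Lat, 8 h replicate 1 was the lowest and 8 h replicate 2 the highest. The ratio of Cd5 to Cd6 counts overlapped, at 1.10 to 92.2 at 8 h and 1.497 to 94.8 in controls.

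Other members varied less within a group than Lck did in the controls. There Cd3e, Cd3g, Lat, Cd5 and Cd6 spanned 6.86-fold to 9.39-fold, a span that 21.8% to 28.4% of the 1206 rows stayed below, while Cd3d spanned 78.2-fold. Over all 6 libraries the narrowest span of the 7 was that of Cd5, at 18.0-fold. At 8 h the spans ran from 4.15-fold for Cd3d to 66.1-fold for Cd6, beside a median row of 22.9-fold.

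**Figure D3:**
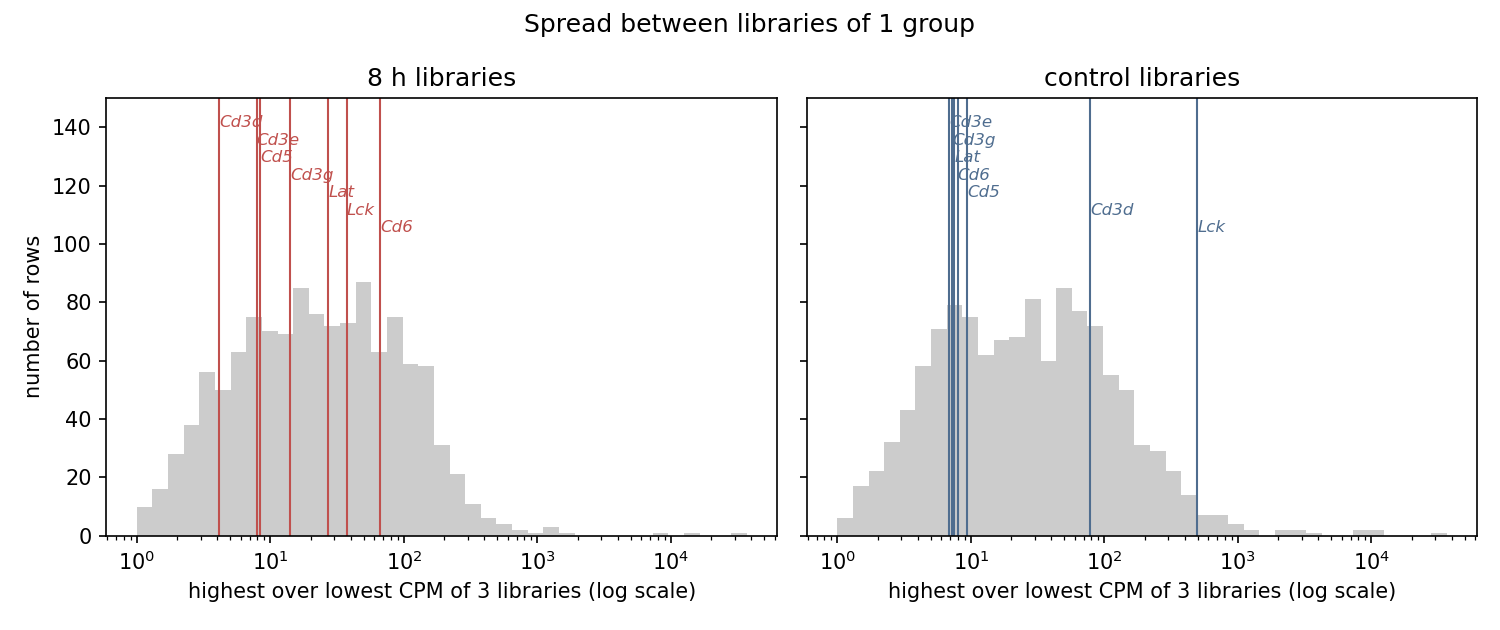
Histogram of the ratio of the highest to the lowest CPM among the 3 libraries of a group (log axis) for 1206 rows, 8 h left and control right, with lines for 7 members. Lck in the controls (497-fold) lies in the upper tail, whereas 5 members lie between 6.86-fold and 9.39-fold there.

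Compared per transcript length over all 6 libraries, the median levels were 976 CPM per kb for Cd3g, 634 for Cd5, 422 for Lck, 224 for Cd3d, 99.2 for Cd3e, 61.7 for Lat and 27.3 for Cd6. Cd247 followed with 0.363 CPM per kb and Zap70 with 0.211 CPM per kb, where the length was that of another accession of Zap70. Neighbours in this order overlapped over the libraries except Cd6 and Cd247, where the lowest Cd6 value was 2.58 and the highest Cd247 value 0.717 CPM per kb.

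The 8 h and control libraries were compared for every row with enough counts, 8308 in all, 7 of them members. None of the 7 members passed edgeR's quasi-likelihood test, and 0 had an unadjusted p under 0.05. Over all tested rows 0 passed at an adjusted p under 0.05 (0%), and 8.53% had an unadjusted p under 0.05. Cd3d had a log2 fold change of -4.33 ± 2.63 (SE; edgeR adjusted p = 0.648). Cd3g had one of 2.11 ± 2.35 (SE; edgeR adjusted p = 0.829). Lck had one of -1.89 ± 2.39, Cd3e one of -1.57 ± 2.04 and Cd6 one of 1.13 ± 1.89 (SE). Lat, at 0.17 ± 1.83, and Cd5, at 0.15 ± 2.23 (SE), were close to 0, with errors that leave room for large changes in either direction. The edgeR adjusted p of these 5 genes ranged from 0.852 to 0.994. The median log2 fold change of the 7 members was 0.15, beside 0.06 over all tested rows. None of the 7 had groups that did not overlap, beside 10.9% of all tested rows, 6.23% with all 8 h libraries higher and 4.65% with all 8 h libraries lower.

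Single libraries set the size and often the sign of these fold changes. Without control replicate 2 the log2 fold change of Cd3d was -1.44, and without control replicate 3 that of Lck was 5.17. Without 8 h replicate 3 the value of Cd3g was 0.40, and without control replicate 3 it was 3.78. DESeq2's Wald test also passed 0 members, beside 5.62% of the 6908 rows to which it gave an adjusted p. It set Lck aside without a p, and its lowest member value was that of Cd3d (unadjusted p = 0.00578, adjusted p = 0.0767).

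**Figure D4:**
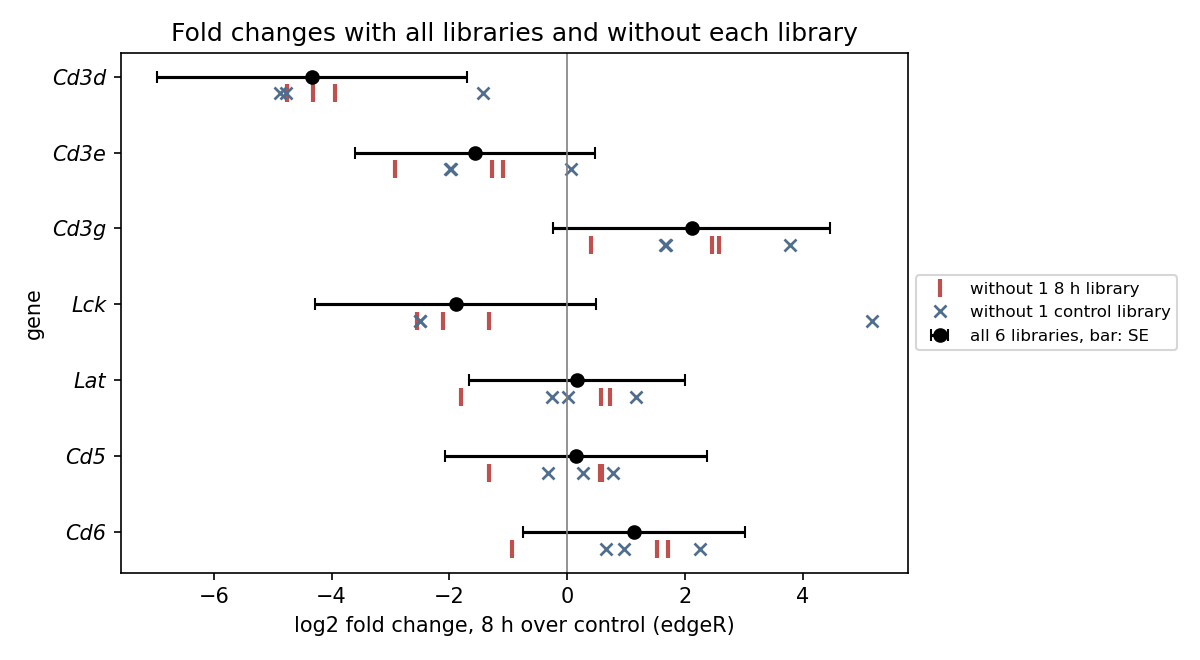
Log2 fold change of 8 h over control for the 7 tested members. Black points with bars give the edgeR value and its SE with all 6 libraries, and coloured marks the value without 1 library. Lck moves to 5.17 without control replicate 3, and Cd3d and Cd3g keep their sign without any 1 library.

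Of 75 other genes of T cell receptor signalling, 61 matched a row and 41 had enough counts to be tested. None of the 41 passed edgeR's test, 21 had higher and 20 lower fitted values, and the median log2 fold change was 0.05. The groups did not overlap for 5 of the 41 (12.2%), beside 10.9% of all tested rows. Ptprcap, which associates with the phosphatase CD45, had 9627, 11293 and 3817 counts in 8 h replicates 1 to 3, against 72, 63 and 1574 counts in control replicates 1 to 3. Csk, the kinase that restrains Lck, had 1516, 315 and 626 counts at 8 h, against 47, 82 and 73 counts in controls. Ptpn22, a phosphatase that acts on Lck and Zap70, and Slamf6, a receptor of the SLAM family, were also higher in each 8 h library than in each control. Slamf6 had 22, 74 and 27 counts in 8 h replicates 1 to 3, against 10, 2 and 14 counts in control replicates 1 to 3.

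In the other direction, Mapk3, the MAP kinase ERK1, had 98, 132 and 19 counts in 8 h replicates 1 to 3, against 85, 465 and 3369 counts in control replicates 1 to 3. Its CPM did not overlap. Its log2 fold change was -4.10 ± 2.005 (SE; edgeR adjusted p = 0.555), and among the 41 genes it was the 1 called by DESeq2 (adjusted p = 0.0307). DESeq2 called 5.62% of the 6908 rows to which it gave an adjusted p, so 1 call among 41 genes does not stand out. Over the alternatives for Mapk3 the adjusted p ran from 0.0307 to 0.998. These 5 genes were named after their values were seen, except Ptpn22, which was also among the most abundant of its role.

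By role, 7 of 9 tested co-receptors and co-stimulatory receptors had higher fitted values at 8 h, with 0 called by edgeR. Over all 8308 tested rows 4263 had higher and 4045 lower fitted values. The counts of direction by role were not tested. Ptprc, which encodes CD45, the phosphatase that keeps Lck active, ranged from 64.5 to 12729 CPM at 8 h and from 87.1 to 732 CPM in controls. Ctla4, an inhibitory receptor, ranged from 327 to 1712 CPM at 8 h and from 109 to 4349 CPM in controls. Of 9 tested kinases 5 had higher and 4 lower fitted values, with 0 called by edgeR and 1, Mapk3, by DESeq2. Map2k1, the MAP kinase kinase MEK1, ranged from 52.9 to 1007 CPM at 8 h and from 4.18 to 1135 CPM in controls. Map4k1 ranged from 29.3 to 388 CPM at 8 h and from 9.20 to 53.9 CPM in controls.

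Of 7 tested adaptors and scaffolds, 1 had a higher and 6 a lower fitted value at 8 h, with 0 called by edgeR. Beside these, 4045 of all 8308 tested rows had lower fitted values. Fyb, an adaptor linking the receptor to integrins, ranged from 13.9 to 676 CPM at 8 h and from 11.1 to 1157 CPM in controls, and Was, the actin regulator of Wiskott-Aldrich syndrome, from 12.5 to 321 CPM at 8 h and from 12.4 to 823 CPM in controls. Of 7 genes of second messengers and calcium 3 had higher and 4 lower fitted values. Dgka, which removes the messenger diacylglycerol, ranged from 176 to 432 CPM at 8 h and from 169 to 7254 CPM in controls, and Itpr3, a calcium channel, from 11.6 to 78.2 CPM at 8 h and from 5.26 to 67.1 CPM in controls. Of 9 negative regulators 5 had higher and 4 lower fitted values. Ptpn22 ranged from 42.9 to 826 CPM at 8 h and from 15.7 to 35.8 CPM in controls, and Dusp6, a phosphatase of the MAP kinases, from 86.3 to 191 CPM at 8 h and from 58.4 to 333 CPM in controls. The other 20 matched genes, which the filter left untested, reached at most 48 counts. They include Lcp2 and Plcg1, whose products act beside Lat, and Cd4, so low counts were not limited to Cd247 and Zap70 in this cascade. Lcp2 and Plcg1 were chosen after their values were seen.

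**Figure D5:**
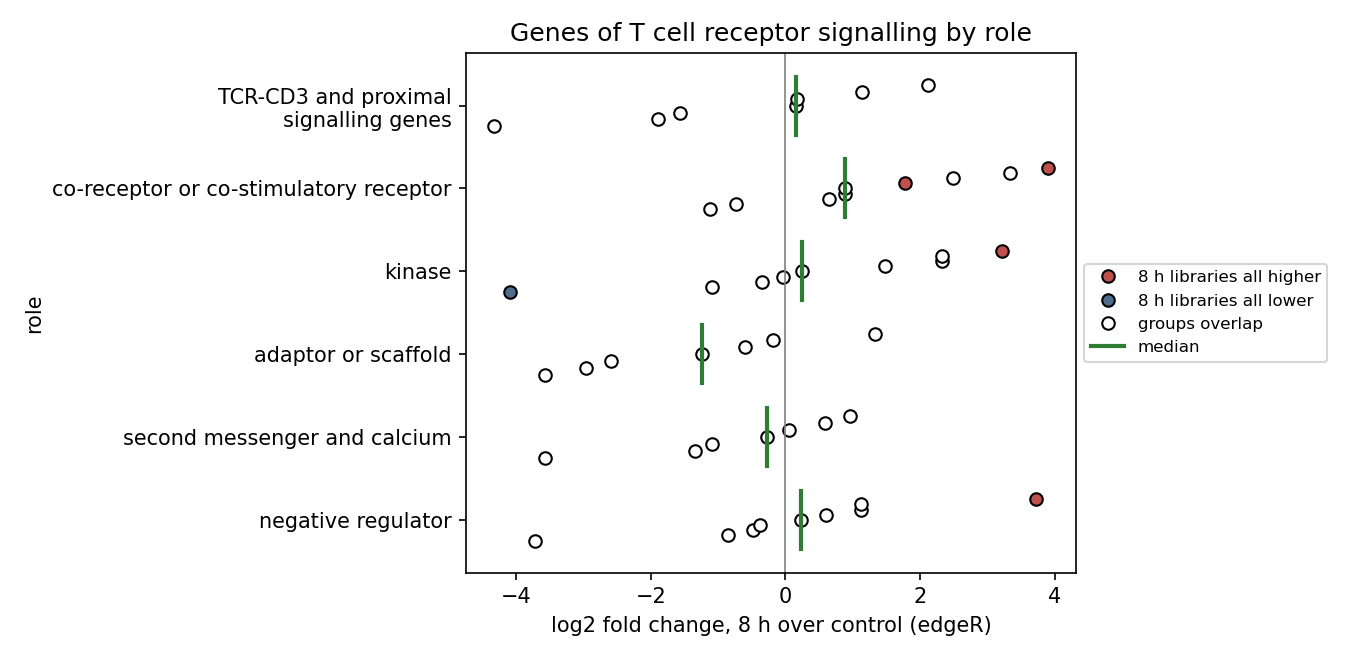
Log2 fold change of 8 h over control (edgeR) of 7 members and 41 other signalling genes, in rows by role, with the median of each row as a green line. Filled points mark the 4 genes with higher values in every 8 h library and the 1 gene with lower values in every 8 h library.

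Genes with the pattern most like that of each tested member were sought among the other tested genes that averaged 100 CPM or more. Likeness was the root mean square distance of log2 (CPM + 1), centred on each gene's mean, over the 6 libraries. The closest pattern was that of Pdia6, an enzyme of protein folding, to Cd5 (distance 0.31), followed by Psenen (0.64). Tbc1d14 (0.50) and Lamtor4 (0.66) lay nearest to Lat, and Osbp (0.54) and Aaas (0.56) to Cd6. Emc7 (0.71) and Ctsa (0.78) lay nearest to Cd3d, and Izumo1r (0.75) and Srsf4 (0.81) to Cd3e. Fam136a (0.80) and Eif3d (0.88) were nearest to Cd3g, and Eef2 (0.88) and Smdt1 (0.99) to Lck. No member was among the nearest genes of another. As only 2 genes were taken from 1221 candidates per member, this says little about how alike the members were. No background of distances was computed. Between members the smallest distance was 1.08, for Lat and Cd6, and that of the neighbours Cd3d and Cd3g was 3.33.

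Markers of other cells that a CD4+ preparation could hold were set beside these values. Summed over 9 markers, genes of cytotoxic and natural killer cells, which also use several of these signalling genes, ran from 261 to 419 CPM at 8 h and from 1462 to 4189 CPM in controls, without overlap. This sum rested on a few granule genes of high level, and no share over other sums of genes was computed. Of the 9 markers 7 overlapped between the groups. The other 2, Gzma and Klrb1c, had lower CPM in every 8 h library. Of all tested rows, 4.65% had all 8 h libraries lower and 10.9% had no overlap in either direction. Klrb1c had few counts, with 0, 24 and 1 in 8 h replicates 1 to 3, against 124, 18 and 90 in control replicates 1 to 3. Gzmb, which encodes granzyme B, stood at 223, 349 and 90.6 CPM in 8 h replicates 1 to 3, against 3929.9, 1159.5 and 21.6 CPM in control replicates 1 to 3. The mean was lower at 8 h for 6 markers and higher for 3, Eomes, Ncr1 and Klrk1. Eomes averaged 11.9 CPM at 8 h and 7.88 CPM in controls. These markers were named after their values were seen. The sum over 8 B cell markers ran from 53.8 to 108 CPM at 8 h and from 39.1 to 152 CPM in controls. The sum over 8 monocyte and macrophage markers ran from 42.5 to 87.2 CPM at 8 h and from 23.7 to 103 CPM in controls, and Lyz2 had 2 to 138 counts. That over 2 CD8 T cell markers ran from 12.7 to 60.6 CPM at 8 h and from 8.33 to 34.2 CPM in controls, and Cd8a had 6 to 72 counts. That over 7 erythroid and platelet markers ran from 8.65 to 86.0 CPM at 8 h and from 24.3 to 98.4 CPM in controls. Pax5, Fcrla, Csf1r, Adgre1, Klrb1c, Alas2 and Pf4 each had 0 counts in at least 1 library. The part of these markers in the results was not tested.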

How the data were processed

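RNA was sequenced as single reads of 50 bases, per the series' design text. The authors deposited whole-number counts per RefSeq accession, used here unchanged. Per the submitters' processing notes, Bowtie, R 3.4.2 and GRCm38 were used, without a stated role. For the counting program, its use of strand and of reads with several matches, and any row filter, nothing was given in the sources used here, so genes with overlapping or similar neighbours are uncertain. No row summed to 0, and 0 columns lay outside the series. Symbols came from RefSeq GRCm38.p6 (12827 accessions) or GENCODE M21 (47), and 303 stayed unnamed. Depth ran from 4564010 to 13675127 counts.

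The 8 h and control libraries were compared with edgeR 4.0.16 under R 4.3.3 (TMM, filterByExpr, robust quasi-likelihood F test in its default form, two-sided, Benjamini-Hochberg adjustment over all 8308 tested rows at 0.05). The SE was obtained by dividing the size of the log2 fold change by the root of F. Scripts were tested on simulated counts. Alternatives were RLE scaling, library totals, no filter, DESeq2 1.42.0, a replicate block and leaving out each library.

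Members and lists were chosen with earlier results of these data known. Genes named were all members, the 2 most abundant other signalling genes per role, called genes, Cd4, defining markers and the 2 nearest patterns per member, of which some defining markers are not reported here. The Cd3g share and the alternatives for it and Mapk3 were chosen after seeing the data.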

Additional observations from a re-analysis of the deposited data

How the results depend on the processing

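The number of genes called by edgeR stayed at 0 for all genes, for the members and for the other signalling genes under RLE scaling, library totals, no filter and the replicate block, and without each library (0 to 0). With 0 genes called throughout, these counts say nothing about stability. DESeq2 called 388 genes in all and 1 other signalling gene, Mapk3. Library totals in place of TMM moved the median log2 fold change of all genes by 0.12. Of 77 values for the members, 66 kept their direction and 11 did not. With replicate number as a block the log2 fold change turned to -0.44 for Cd5, -0.45 for Cd6, -0.65 for Lat and 4.13 for Lck. The labels state no pairing, so the numbers were not taken to pair samples. Same-numbered libraries had residual correlations of -0.0134, 0.014 and -0.000734, which cannot settle pairing given the wide spread between libraries. Without each library in turn the log2 fold change ran from -2.92 to 0.062 for Cd3e, from -1.33 to 0.77 for Cd5, from -0.93 to 2.26 for Cd6, from -1.80 to 1.17 for Lat and from -2.54 to 5.17 for Lck. The cause was not tested. The difference in the Cd3g share of chain counts, 49.4 percentage points with all libraries, was 47.5 per transcript length and 36.0 to 62.7 without each library. Low counts limit Cd247 and Zap70, and the spread between libraries limits every other member.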
